A study of Mus musculus with 9 samples.

Results

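The results below concern 103 graded probes of an Illumina bead array, each of which ordered 9 mice by diet without overlap and with the mannose-treated mice in the middle. Of 45281 probes in the deposited table, 80 were rising members, meaning that every HFD mouse lay above every HFDM mouse and every HFDM mouse above every ND mouse. Another 23 were falling members, with the reverse order and HFD lowest. The members were chosen by these measured values of all 3 diets, so their levels and differences are given as a description, with no test.

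The arrays measured total RNA of epididymal fat, the visceral fat pad beside the epididymis, from male C57BL6/J mice aged 16 weeks. HFDM mice had been given a high fat diet (HFD) from weaning with 2% mannose in their drinking water, HFD mice the high fat diet alone, and ND mice a normal diet. Each diet had 3 arrays, titled as replicates, and each array is taken here as 1 mouse. The numbers 1 to 3 after a diet name that mouse. The labels do not give the composition of the feeds, the duration beyond weaning or body weights.

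White fat stores triglyceride in adipocytes, and a high fat diet enlarges both the cells and the pad. In obese epididymal fat of mice, macrophages gather around dying adipocytes, take up their lipid and digest it in lysosomes, and chemokines draw in further leukocytes. Fibroblast-like and mural cells lay down and contract extracellular matrix as the pad expands, while synthesis of new fatty acid in adipocytes commonly declines. Mannose is a hexose that cells phosphorylate and attach to proteins as part of N-linked glycans. In whole tissue, fewer cells of a type and less RNA per cell cannot be told apart.

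Levels are log2 of the deposited intensity plus 16, with values below 0 set to 0 first and no normalization between arrays. A difference of 1 is therefore a factor of 2 on the scale of intensity plus 16, which understates changes of dim probes. A probe entered when its detection p-value was under 0.01 on all 3 arrays of its brightest diet, which held for 14903 probes, or 32.9% of the table. The HFD and ND means then had to be at least 1 apart. Rising members made up 0.537% and falling members 0.154% of the detected probes. Of the rising members, 66 carried a gene symbol and stood for 64 genes, and of the falling members 19 did, for 17 genes. Pcolce2, Acta2, Gsta3 and Slc2a13 each had 2 member probes.

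Some arrays stood apart. HFD 3 was dimmer than the others, with a median level of 9.01 over the 12934 probes detected on every array, against 9.30 to 9.54 elsewhere. Markers of epididymis and testis, organs next to the fat pad, were high on 5 arrays spread over the diets. Summed intensities of 17 marker genes were 118534, 946 and 51376 in HFDM mice, 623, 485 and 40608 in HFD mice, and 2018, 42780 and 34370 in ND mice. Prm1, a sperm protamine gene, made up most of the sum on the 5 high arrays. No member belonged to this list, and its part in the members' levels was not tested. On the 4 arrays with sums under 10000, which were HFDM 2, HFD 1, HFD 2 and ND 1, 76 of 80 rising and 19 of 23 falling members still met the rule. Order on these arrays follows from order on all 9, so only the difference of means could fail there. With so few arrays 1055 rising and 767 falling probes met the rule in all.

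Most of the diet difference was not graded. HFD lay clear above ND by at least 1 at 523 detected probes, and at 325 of these (62.1%) the HFDM mice overlapped the ND mice only. HFDM overlapped HFD only at 52 probes (9.94%) and both diets at 65 (12.4%), and it was clear of both and between them at the 80 rising members (15.3%). Below ND, 263 probes had HFD clear by at least 1, of which 195 (74.1%) had HFDM overlapping ND only, 14 (5.32%) HFD only and 29 (11%) both. The 23 falling members were 8.75% of the 263. Full orders with another diet in the middle were counted where the means of the highest and lowest diet were at least 1 apart. ND lay between the others at 3 probes with HFD on top and at 5 with HFDM on top, and HFD lay in the middle at 0 probes in either direction.

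**Figure D1:**
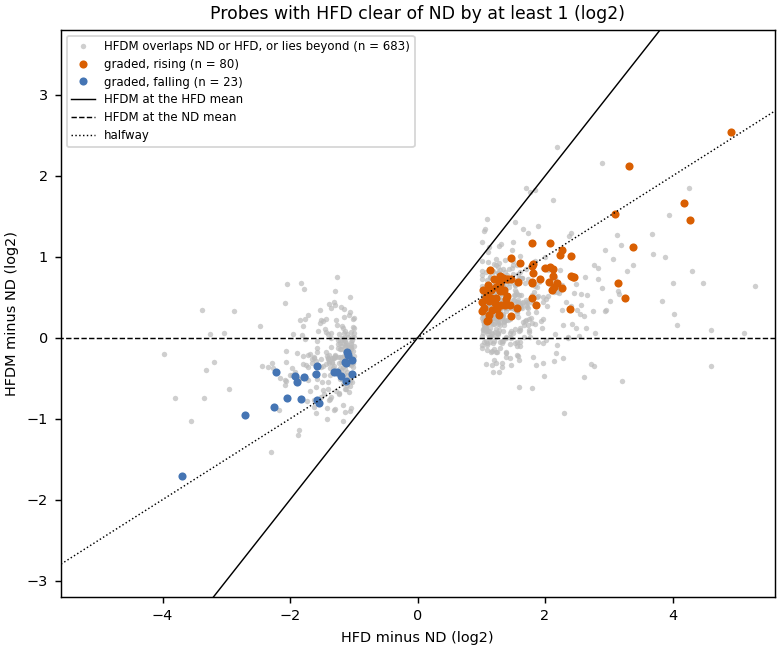
Each point is 1 detected probe whose HFD mice lay clear of its ND mice by at least 1, with the HFD minus ND difference of means on the x axis and the HFDM minus ND difference on the y axis (both log2). The 80 rising members (orange) and 23 falling members (blue) lie between the line at the ND mean and the line at the HFD mean, and most are on the ND side of the halfway line.

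The HFDM mean can be placed on a scale where the ND mean is 0 and the HFD mean is 1. The median position was 0.420 over the rising members (range 0.149 to 0.731), and 57 of them had HFDM nearer ND and 23 nearer HFD. Over the falling members the median was 0.320 (0.162 to 0.518), with 22 of 23 nearer ND. The rule keeps HFDM away from both ends, and over all probes with HFD clear of ND the median position was 0.280 above ND (523 probes) and 0.206 below ND (263 probes). The 3 HFDM mice gave similar medians, at 0.405, 0.398 and 0.421 for mice 1 to 3 over the rising members (SD 0.012, n = 3). Over the falling members they were 0.328, 0.333 and 0.295 (SD 0.021, n = 3). The rule admits only probes whose 3 HFDM mice all fit between the other diets, which favours such likeness. It also depended on the scaling. Median levels of the rising members in HFDM mice 1 to 3 were 8.71, 8.74 and 8.68 as deposited. After quantile normalization they were 8.35, 8.86 and 8.60.

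Rising members had HFD minus ND differences between 1.01 and 4.92, with a median of 1.46, and HFDM minus ND differences between 0.21 and 2.54, with a median of 0.66. These are differences of measured levels. ND was not above background on any array at 10 of the rising members and HFD at 3 of the falling ones, and there the measured level is only a bound. With those members at their bound, the median HFD minus ND was 1.38 over the rising members, and 20 reached 4-fold and 5 reached 8-fold. Members detected on only some arrays of the dim diet entered at their measured level. Of the 5, Slc5a7 and the unnamed probe ILMN_2739816 were detected on 1 of 3 ND arrays and Crtac1 on 2. Their folds rest partly on undetected levels. Falling members had HFD minus ND differences between -3.69 and -1.03, with a median of -1.58, and a median HFDM minus ND of -0.47. With bounds the median HFD minus ND was -1.55, and 4 reached 4-fold and 1 reached 8-fold. The separation was often narrow. The clear step, the smaller of the 2 gaps between the ranges of neighbouring diets, was under 0.1 at 44 of 80 rising and 10 of 23 falling members, and at least 0.3 at 15 and 4.

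**Figure D2:**
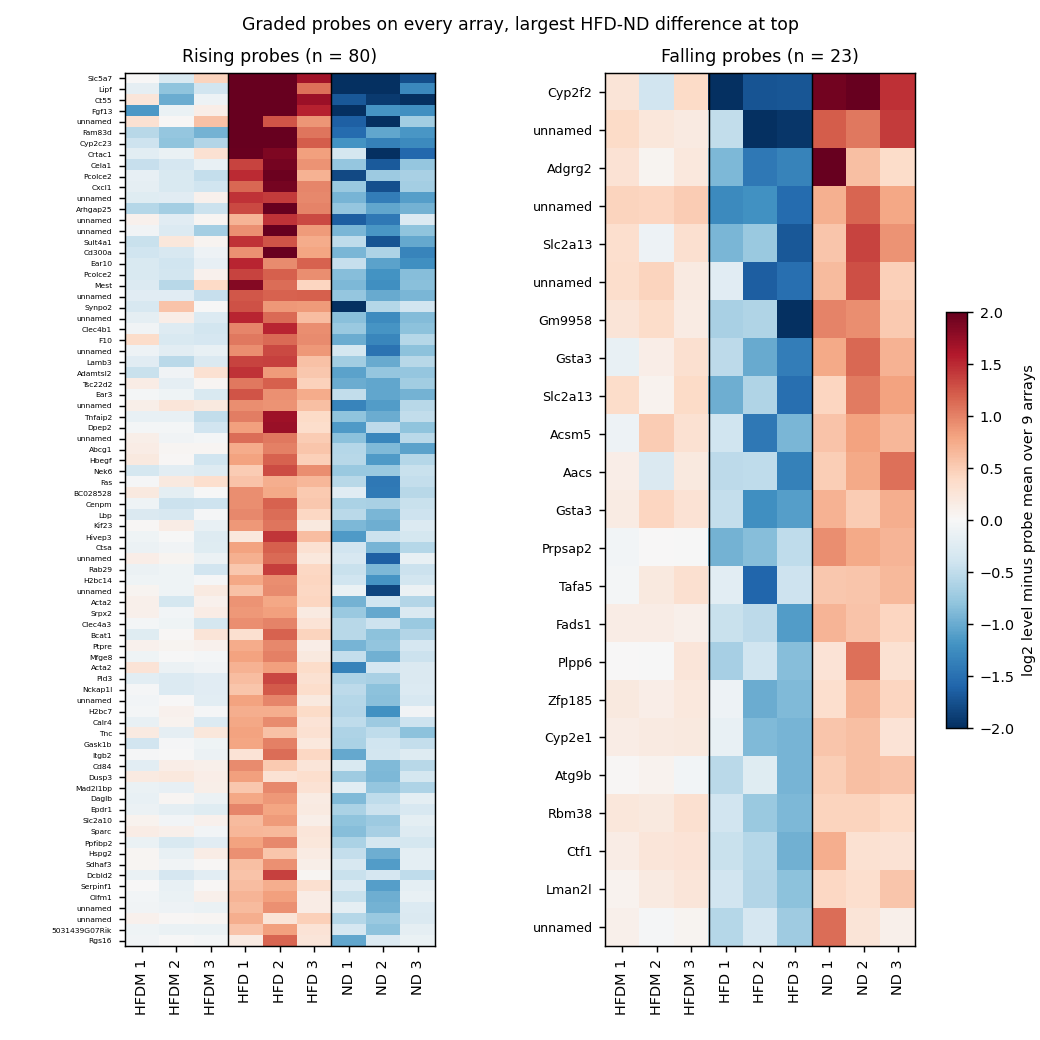
Heat map of the 80 rising (left) and 23 falling (right) members, 1 row per probe and 1 column per array, coloured by log2 level minus the probe's mean over 9 arrays and sorted by HFD minus ND. HFDM columns are paler than HFD and ND columns at most members, HFD and ND take opposite colours, and HFD 3 was the lowest HFD mouse at 69 of 80 rising members.

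The widest clear step belonged to Slc5a7, the high-affinity choline transporter that cholinergic neurons use to make acetylcholine. Its level was 8.35, 8.04 and 8.78 in HFDM mice, 10.75, 11.54 and 10.02 in HFD mice, and 5.70, 5.30 and 6.56 in ND mice. The 3 diets were separated by more than 1 on the log2 scale at both steps. HFD exceeded ND by 4.92, or 30.2-fold, and HFDM exceeded ND by 2.54, at position 0.516. The probe was detected on all 6 arrays of the high fat diets and on 1 of 3 ND arrays.

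Lipf, which encodes gastric lipase, a secreted triglyceride hydrolase of the stomach lining, had the second largest difference. It measured 8.74, 8.11 and 8.54 in HFDM mice, 11.19, 12.63 and 10.02 in HFD mice, and 6.83, 6.56 and 7.63 in ND mice. HFD exceeded ND 19.3-fold, and its 3 mice differed more among themselves than those of either other diet. Cyp2c23, a cytochrome P450 that converts arachidonic acid to epoxides, lay closer to ND, at 7.59, 7.21 and 7.42 in HFDM mice, 10.12, 10.30 and 9.23 in HFD mice, and 6.82, 6.65 and 6.73 in ND mice. The HFD excess over ND was 8.88-fold, and the HFDM mean sat at 0.213 of the way.

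For the 13 members whose dim diet was not above background on any array, the fold is given as at least the bright mean over the higher of the dim probe's own level and the lowest level among probes detected on the same array. Ct55, a cancer/testis antigen gene, read 6.48, 5.24 and 6.13 in HFDM mice, 8.52, 8.93 and 7.94 in HFD mice, and 4.54, 4.32 and 4.0 in ND mice. This probe was detected on the HFD arrays only, and its level was at least 4.66-fold higher in HFD than in ND. Its step from ND to HFDM is thus an order among undetected levels. The same holds for Cd300a, Fam83d and Sult4a1, likewise detected on no HFDM or ND array. A second Ct55 probe, detected on 5 arrays, was not fully ordered, at 7.54, 5.55 and 6.85 in HFDM mice, 9.01, 9.82 and 8.38 in HFD mice, and 4.73, 5.67 and 4.97 in ND mice. Fgf13, an intracellular fibroblast growth factor relative that binds sodium channels, read 5.73, 6.75 and 7.0 in HFDM mice, 8.87, 8.99 and 8.41 in HFD mice, and 4.78, 5.70 and 5.65 in ND mice. At this probe the level was at least 5.70-fold higher in HFD, and HFDM 1 cleared the highest ND mouse by 0.028. A second Fgf13 probe was detected on all 9 arrays, with an HFD minus ND difference of 2.94. It read 10.72, 10.53 and 11.26 in HFDM mice, 12.66, 12.97 and 12.43 in HFD mice, and 8.93, 9.72 and 10.59 in ND mice, where HFDM 2 lay below the highest ND mouse.

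**Figure D3:**
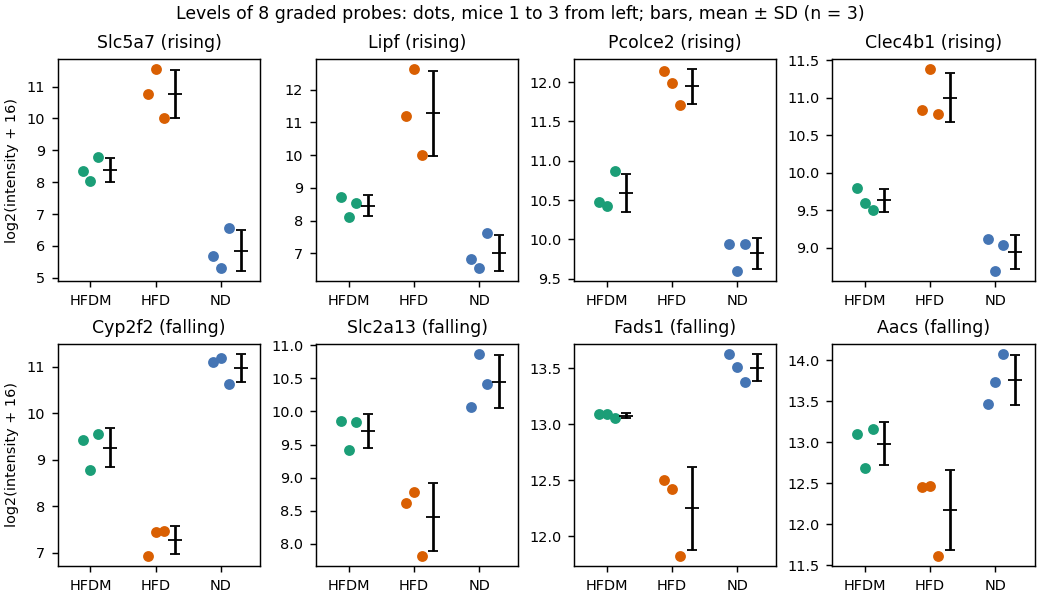
Levels of 8 members on every array, as log2(intensity + 16) on axes that differ between panels, with dots for mice 1 to 3 from left to right and bars for mean ± SD (n = 3). In the top row (Slc5a7, Lipf, Pcolce2, Clec4b1) HFD is highest and in the bottom row (Cyp2f2, Slc2a13, Fads1, Aacs) HFD is lowest, with HFDM between HFD and ND in all 8 panels.

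Immune and inflammatory genes formed one group of 15 rising members, sorted by known role after their values were seen. Their HFD minus ND differences ran between 1.15 and 2.41, with a median of 1.79 on measured levels and 1.47 with 1 member at its bound, and their HFDM minus ND differences had a median of 0.58. The median position was 0.319, closer to ND than the 0.420 of all rising members, and no test was made of that difference. The group held receptors and surface proteins of myeloid cells, granule ribonucleases, cell adhesion and cytoskeletal genes and acute-phase genes.

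Cxcl1, a chemokine that attracts neutrophils, was at 6.93, 6.81 and 6.70 in HFDM mice, 8.25, 9.02 and 8.09 in HFD mice, and 6.37, 5.35 and 6.42 in ND mice. HFDM cleared the highest ND mouse by 0.28, and HFD exceeded ND 5.30-fold, with detection on 2 of 3 ND arrays. Its promoter is a textbook target of the inflammatory transcription factor NF-kB and is shown for that reason, with the 1 match to the NF-kB motif in capitals. RefSeq places this window of 250 bases before to 50 after the gene's start at chr5:90890995-90891294 on the plus strand of GRCm38.p6, and the match begins at -71 from the start.
Cxcl1 promoter: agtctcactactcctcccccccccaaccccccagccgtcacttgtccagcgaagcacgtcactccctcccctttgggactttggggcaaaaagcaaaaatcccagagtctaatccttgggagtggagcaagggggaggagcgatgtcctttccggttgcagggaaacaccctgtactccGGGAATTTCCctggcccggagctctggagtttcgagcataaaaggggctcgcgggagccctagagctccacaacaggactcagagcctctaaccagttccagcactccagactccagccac

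The C-type lectin receptor Clec4b1, found on dendritic cells and monocytes, read 9.80, 9.60 and 9.50 in HFDM mice, 10.84, 11.38 and 10.79 in HFD mice, and 9.12, 8.69 and 9.04 in ND mice. All 3 diets were separated by at least 0.38 at this probe, and HFD exceeded ND 4.16-fold. At another Clec4b1 probe, detected on all 9 arrays, ND 1 at 10.005 lay above HFDM 2 at 9.974. Its relative Clec4a3 differed less, with HFD 2.47-fold above ND and HFDM at position 0.315. Cd300a, an inhibitory receptor of myeloid cells, was detected on the HFD arrays only, at 6.67, 7.74 and 6.55, and its level was at least 1.68-fold higher there than in ND. Cd84, a homophilic receptor of the SLAM family, and Itgb2, the beta chain of the leukocyte integrins, had differences of 1.15 each.

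The ribonucleases Ear10 and Ear3, granule proteins of eosinophils that also occur in macrophages, differed by 2.13 and 1.80 between HFD and ND. Ear3 was at 12.08, 12.03 and 11.81 in HFDM mice, 13.37, 13.03 and 12.86 in HFD mice, and 11.62, 11.07 and 11.17 in ND mice. HFDM lay clear of both neighbours by at least 0.19. Genes of the Ear family are near-identical copies, and a probe of one may bind RNA of another. Arhgap25, a regulator of Rac in phagocytes, had the lowest position of all rising members at 0.149, with HFD 5.24-fold above ND and HFDM minus ND at 0.36. Nckap1l, a haematopoietic subunit of the actin-remodelling WAVE complex, had a position of 0.289.

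Among the remaining immune members, Lbp, which carries bacterial lipopolysaccharide to its receptor, was at 11.74, 11.71 and 12.01 in HFDM mice, 12.99, 13.14 and 12.45 in HFD mice, and 11.49, 11.12 and 11.62 in ND mice. HFDM stood 0.41 above ND. Mfge8, a secreted bridge between dying cells and phagocytes, was at 13.74, 13.81 and 13.79 in HFDM mice, 14.64, 14.84 and 14.03 in HFD mice, and 13.36, 12.87 and 13.39 in ND mice. Its HFDM mice differed by less than 0.1 among themselves. Fas, the death receptor, was nearer HFD at position 0.670, whereas Tnfaip2, a gene induced by tumour necrosis factor, was at 0.276 and cleared the ND mice by 0.0012. Dpep2, a membrane dipeptidase that cleaves leukotriene D4, had a difference of 1.79.

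Matrix and contractile genes were the second group, with 11 genes on 13 rising probes. Differences between HFD and ND ran between 1.08 and 3.10, with a median of 1.34. The median position was 0.494, and the lowest and highest positions were 0.217 and 0.60. HFDM lay nearer the midpoint in this group than in the immune group, and no test was made of that difference.

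Pcolce2, which enhances the cleavage of procollagen, was graded at both of its member probes. The probe with the wider step read 10.47, 10.42 and 10.87 in HFDM mice, 12.14, 11.99 and 11.71 in HFD mice, and 9.94, 9.59 and 9.94 in ND mice. The HFD excess was 4.36-fold at this probe and 5.44-fold at the other, with HFDM at positions 0.360 and 0.307. Crtac1, a glycosylated matrix protein of cartilage, had the largest difference of the group, at 3.10, with ND mice spread between 5.72 and 8.08 and detection on 2 of 3 ND arrays.

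Acta2, smooth muscle actin of mural cells and myofibroblasts, measured 9.56, 9.11 and 9.54 in HFDM mice, 10.36, 10.23 and 9.88 in HFD mice, and 8.51, 9.07 and 8.88 in ND mice at 1 probe. HFDM 2 and ND 2 were 0.046 apart there. At the second member probe HFD exceeded ND 2.43-fold. Tnc, the matrix glycoprotein tenascin C, read 7.58, 7.22 and 7.63 in HFDM mice, 8.20, 7.98 and 7.70 in HFD mice, and 6.79, 6.90 and 6.58 in ND mice. It had the highest position of the group, at 0.60. Sparc, a collagen-binding secreted protein abundant in fat, was at 14.43, 14.39 and 14.23 in HFDM mice, 14.95, 14.93 and 14.53 in HFD mice, and 13.44, 13.63 and 14.02 in ND mice.

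The other matrix and contractile members were Srpx2, Hspg2 (the basement membrane proteoglycan perlecan), Serpinf1 (the secreted serpin PEDF), Lamb3 (a laminin chain), Adamtsl2 and Synpo2, an actin-binding protein of muscle. Hspg2 was at 13.09, 12.90 and 13.20 in HFDM mice, 13.97, 13.61 and 13.21 in HFD mice, and 12.57, 12.08 and 12.85 in ND mice. The gap between HFD 3 and HFDM 3 was 0.011, the smallest of the matrix and contractile members with Lamb3. Lamb3 lay nearest ND in the group, with HFD 3.62-fold above ND.

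Lysosomal, endosomal and lipid-handling genes were a group of 7 rising members, with Lipf and Cyp2c23 above. Differences had a median of 1.39 and positions a median of 0.341. Abcg1, which exports cholesterol from macrophages to lipoproteins, was at 7.41, 7.30 and 7.30 in HFDM mice, 8.0, 8.27 and 7.81 in HFD mice, and 6.69, 6.38 and 6.19 in ND mice. The diets were separated by at least 0.39 at both steps, and HFD exceeded ND 3.04-fold, with detection on 2 of 3 ND arrays. Pld3, a lysosomal exonuclease, had a position of 0.221. Rab29, a small GTPase of the endolysosomal system, was at 0.293, and Daglb, which releases 2-arachidonoylglycerol from diacylglycerol, was at 0.399.

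Ctsa, the lysosomal carboxypeptidase that protects beta-galactosidase and neuraminidase, read 12.34, 12.39 and 12.21 in HFDM mice, 13.27, 13.65 and 12.76 in HFD mice, and 12.08, 11.53 and 11.89 in ND mice. HFDM cleared ND by 0.13, and HFD exceeded ND 2.62-fold. Many lysosomal genes share an E-box that the transcription factor TFEB binds, searched here as TCACGTGA. Ctsa was the 1 member whose promoter held it, so its sequence is shown with both copies in capitals. The RefSeq window is chr2:164833523-164833822 on the plus strand of GRCm38.p6, and the copies begin at -13 and at 4 from the gene's start.
Ctsa promoter: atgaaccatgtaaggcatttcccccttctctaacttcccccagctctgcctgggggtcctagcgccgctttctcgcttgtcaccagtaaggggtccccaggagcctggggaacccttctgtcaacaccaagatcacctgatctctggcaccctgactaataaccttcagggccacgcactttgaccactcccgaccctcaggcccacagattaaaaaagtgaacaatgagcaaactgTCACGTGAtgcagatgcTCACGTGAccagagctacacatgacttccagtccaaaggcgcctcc

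Genes of cell division and histones gave 7 rising members, of which 5 were above background on at least 1 ND array, with differences between 1.13 and 1.55 there. Fam83d, a spindle protein, was detected on the HFD arrays only, at 7.82, 8.29 and 6.65, against 5.02, 4.81 and 4.64 in HFDM mice and 4.04, 4.54 and 4.42 in ND mice. Its level was at least 2.53-fold higher in HFD than in ND. Cenpm, a centromere protein, was likewise above background only in HFD, at a level at least 1.31-fold higher than in ND. Nek6, a mitotic kinase, had the difference of 1.55 and a position of 0.238, and was detected on 1 of 3 ND arrays. Mad2l1bp, which silences the spindle checkpoint, differed by 1.13. Kif23, a kinesin of cytokinesis, was at 12.95, 13.07 and 12.77 in HFDM mice, 13.78, 13.98 and 13.11 in HFD mice, and 12.02, 11.94 and 12.64 in ND mice. The other 2 detected Kif23 probes differed by 0.25 each between HFD and ND. The histone genes H2bc14 and H2bc7 belong to a cluster of near-identical copies, and their differences of 1.36 and 1.23 cannot be assigned to single genes.

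The other 24 named rising genes had HFD minus ND differences between 1.01 and 4.92 and a median position of 0.434. Among them Mest, an imprinted gene whose level in fat goes with expanding adipocytes, measured 9.39, 9.10 and 10.06 in HFDM mice, 11.49, 10.78 and 10.09 in HFD mice, and 8.76, 8.43 and 8.83 in ND mice. HFDM 3 and HFD 3 were 0.029 apart. Dusp3, a dual-specificity phosphatase, had the highest position of all rising members at 0.731. Its other probes, all detected on all 9 arrays, differed in this. HFDM averaged 9.595 and 9.182 at ILMN_2684693 and ILMN_2637538, above HFD at 9.572 and 8.897. At ILMN_1219017 HFDM averaged 13.584, between ND at 13.236 and HFD at 13.987. Cela1, an elastase, had HFD 5.50-fold above ND. Hbegf, a ligand of the epidermal growth factor receptor, was not above background in ND, and its level was at least 2.69-fold higher in HFD. Tsc22d2 was at 9.76, 9.43 and 9.64 in HFDM mice, 10.65, 10.80 and 10.06 in HFD mice, and 8.62, 8.57 and 8.90 in ND mice, with steps of at least 0.30. F10, coagulation factor X, had HFD 4.0-fold above ND and was detected on 1 of 3 ND arrays. Bcat1, which starts the breakdown of branched-chain amino acids, had HFDM at position 0.508. The glucose transporter gene Slc2a10 and the phosphatase gene Ptpre differed by 1.11 and 1.30. Sult4a1 and Calr4 were not above background in ND, and their levels were at least 1.73-fold and 1.63-fold higher in HFD. Sult4a1 was not detected on any HFDM array either. The rest of these members were Hivep3, Gask1b, Epdr1, Ppfibp2, Sdhaf3, Dcbld2, Olfm1, BC028528 and 5031439G07Rik, with differences between 1.01 and 1.47.

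A further 14 rising probes carried no symbol in the annotation used here. ILMN_2868480 had the third widest clear step, at 10.05, 10.06 and 10.37 in HFDM mice, 11.73, 11.68 and 11.26 in HFD mice, and 9.36, 8.91 and 9.19 in ND mice. ILMN_2739816 had the largest difference of these, 9.92-fold, at position 0.640. It was detected on 1 of 3 ND arrays, so this fold rests partly on undetected levels. Slc5a7 had the widest clear step of all members and carried no match to any motif searched, and its RefSeq promoter window is shown for reference at chr17:54298985-54299284 on the minus strand of GRCm38.p6.
Slc5a7 promoter: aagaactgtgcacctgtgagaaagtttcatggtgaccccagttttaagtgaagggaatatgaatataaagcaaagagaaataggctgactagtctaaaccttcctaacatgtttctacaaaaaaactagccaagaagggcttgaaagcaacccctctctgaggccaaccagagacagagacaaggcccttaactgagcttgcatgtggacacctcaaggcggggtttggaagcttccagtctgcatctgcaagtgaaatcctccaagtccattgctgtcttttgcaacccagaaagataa

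The falling members were led by Cyp2f2, a cytochrome P450 that oxidises naphthalene and is best known from mouse lung. Its level was 9.43, 8.79 and 9.56 in HFDM mice, 6.93, 7.45 and 7.46 in HFD mice, and 11.10, 11.19 and 10.62 in ND mice. Both steps exceeded 1 on the log2 scale. HFD minus ND was -3.69, a 12.9-fold lower level in HFD, and HFDM minus ND was -1.71, at position 0.464. Its promoter window, chr7:27119705-27120004 on the plus strand of GRCm38.p6 in RefSeq, is shown as that of the most separated falling member, and it held no match to a motif searched.
Cyp2f2 promoter: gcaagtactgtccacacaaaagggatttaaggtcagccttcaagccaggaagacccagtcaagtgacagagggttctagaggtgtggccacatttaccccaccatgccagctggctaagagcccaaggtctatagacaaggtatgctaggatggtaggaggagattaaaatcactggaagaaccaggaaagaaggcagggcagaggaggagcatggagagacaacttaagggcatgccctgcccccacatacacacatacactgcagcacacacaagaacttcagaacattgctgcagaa

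The other detoxification genes were Gsta3, a glutathione transferase, and Cyp2e1, which oxidises ethanol and ketones. The Gsta3 probe with the wider step read 7.47, 7.75 and 7.93 in HFDM mice, 7.09, 6.60 and 6.23 in HFD mice, and 8.36, 8.75 and 8.31 in ND mice. At the other Gsta3 probe HFDM sat closer to ND, at 0.224 against 0.413. Cyp2e1 was at 15.56, 15.58 and 15.60 in HFDM mice, 15.27, 14.53 and 14.48 in HFD mice, and 15.97, 16.02 and 15.68 in ND mice. HFD was 2.19-fold lower than ND, and the HFDM mice differed by less than 0.05 among themselves.

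Genes of lipid synthesis and fatty acid activation gave 4 falling members, with differences between -1.59 and -1.20. Fads1, the delta-5 desaturase of polyunsaturated fatty acid synthesis, was at 13.09, 13.09 and 13.05 in HFDM mice, 12.50, 12.42 and 11.82 in HFD mice, and 13.63, 13.51 and 13.38 in ND mice. HFDM lay clear of both diets by at least 0.29. Aacs, which activates ketone bodies for lipid synthesis in the cytosol, was at 13.10, 12.69 and 13.16 in HFDM mice, 12.45, 12.47 and 11.62 in HFD mice, and 13.47, 13.73 and 14.08 in ND mice. The HFDM position was 0.490, against 0.341 for Fads1. Acsm5, a mitochondrial medium-chain acyl-CoA synthetase, and Plpp6, a phosphatase of isoprenoid and other lipid phosphates, were 3.01-fold and 2.30-fold lower in HFD than in ND.

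Slc2a13, a proton-coupled myo-inositol transporter, was a falling member at both of its probes named here. The larger difference was at the probe with 9.85, 9.41 and 9.85 in HFDM mice, 8.61, 8.78 and 7.82 in HFD mice, and 10.07, 10.87 and 10.41 in ND mice. HFD was 4.13-fold lower than ND at this probe and 3.45-fold lower at the other. Prpsap2, a regulatory partner of phosphoribosyl pyrophosphate synthetase, had the highest position of the falling members, 0.518, and was the 1 falling member nearer HFD. It read 6.69, 6.77 and 6.74 in HFDM mice, 5.81, 5.89 and 6.24 in HFD mice, and 7.68, 7.50 and 7.43 in ND mice.

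The 10 falling genes outside detoxification and lipid synthesis had differences between -2.26 and -1.04. Adgrg2, an adhesion G protein-coupled receptor best known from the ducts of the epididymis, was at 8.56, 8.32 and 8.48 in HFDM mice, 7.37, 6.85 and 6.93 in HFD mice, and 10.40, 8.87 and 8.64 in ND mice. ND 1 stood far above the other 2 ND mice. Of the epididymis markers, Ptgds had an intensity of 374.2 on ND 1 and at most 137.3 elsewhere. Adam7 had 206.7 on ND 1, against 1102.4 on ND 3 and at most 169.4 elsewhere. The list as a whole went the other way. Of its 17 genes, 4 were detected on ND 1, 4 on ND 2 and 11 on ND 3, the ND mouse lowest in Adgrg2. Its sum was lowest of the ND mice on ND 1, at 2018, and Lcn8 was at 30.9 on ND 1 and 6355.4 on ND 3. The part of these markers in the Adgrg2 levels was not tested. Atg9b, a lipid scramblase of autophagy, differed by -1.13 with steps of at least 0.19. Tafa5, a secreted chemokine-like protein, was not above background in HFD, and its level was at least 1.40-fold lower there than in ND. Lman2l, a lectin of the endoplasmic reticulum that binds high-mannose glycoproteins, differed by -1.04, at 11.12, 11.24 and 11.29 in HFDM mice, 10.67, 10.46 and 10.23 in HFD mice, and 11.48, 11.39 and 11.60 in ND mice. Ctf1, the cytokine cardiotrophin 1, and Rbm38, an RNA-binding protein induced by p53, differed by -1.09 and -1.10, and Zfp185 by -1.14. Gm9958 was not above background in HFD, where its level was at least 2.02-fold lower than in ND. A further 4 falling probes had no symbol, among them ILMN_2731908, 6.55-fold lower in HFD than in ND, and ILMN_1217246, whose level in HFD was at least 3.35-fold lower.

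The threshold of 1 cut through a continuous set of probes. The rising member nearest to it was Rgs16, a regulator of G protein signalling that was not above background in ND, at 1.01 on measured levels, and the nearest probe outside was one of Arpc1b, a subunit of the actin-branching complex, at 0.95. On the falling side the nearest probes, both without a symbol, were at -1.03 inside and -0.99 outside. With means at least 0.5 apart, 109 probes rose and 43 fell in full order.

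Other probes of the member genes target the same transcripts in the same RNA, so they are no replicate of the order. Of 97 such probes for 52 genes, 50 for 34 genes were detected in their brightest diet. All 50 had the sign of HFD minus ND of their member, and 42 had the 3 means in the member's order. Only 1, of Lman2l, had all mice in full order, and the detected other probes of Clec4b1, Mest and Acta2 did not. HFD minus ND differences of the 50 probes ran between 0.25 and 3.95 for rising genes and between -1.07 and -0.67 for falling genes. The highest belonged to Ct55, whose second probe averaged 6.65 in HFDM mice, 9.07 in HFD mice and 5.12 in ND mice.

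The full order of 9 mice depended on how the arrays were scaled. The dim array HFD 3 was the lowest HFD mouse at 69 of 80 rising members (86.2%) and at 84.4% of all detected probes. After quantile normalization those shares were 40.0% and 38.5%. As deposited, all probes of the limma fit described below had a median HFDM minus HFD of 0.12 and HFDM minus ND of 0.10, against -0.03 for both after quantile normalization. The 103 members' differences are to be read against these shifts.

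All 103 members kept the sign of HFD minus ND and an HFDM mean between the other 2 means under quantile normalization, median scaling and the authors' processed values. The whole rule asks for full order and for means at least 1 apart. It was still met by 31 of 80 rising and 14 of 23 falling members under quantile normalization. Under median scaling 43 and 21 met it, and in the authors' processed values 31 and 14. Under all 3, 28 rising and 14 falling members met it. Among these were 5 of 15 immune, 6 of 13 matrix and contractile, 4 of 7 lysosomal and lipid-handling and 1 of 7 cell division and histone probes, and 3 of 4 each of the detoxification and lipid synthesis probes. Slc5a7, Lipf, Ct55, Cyp2c23, Abcg1, both Pcolce2 probes, Clec4b1, Ctsa, Tnc and both Acta2 probes were among the rising ones. Cyp2f2, Fads1, Aacs, both Slc2a13 probes, Adgrg2, Cyp2e1 and Lman2l were among the falling ones. Cxcl1, Sparc, Fgf13, Prpsap2, Atg9b, Tafa5 and the Gsta3 probe with the wider step were not. Sparc stayed in full order after quantile normalization and failed there by its HFD minus ND difference of 0.96. The median position of the 80 rising members was 0.314 after quantile normalization, against 0.420 as deposited, and that of the 23 falling members 0.413, against 0.320. Which direction placed HFDM closer to ND reversed with the scaling.

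**Figure D4:**
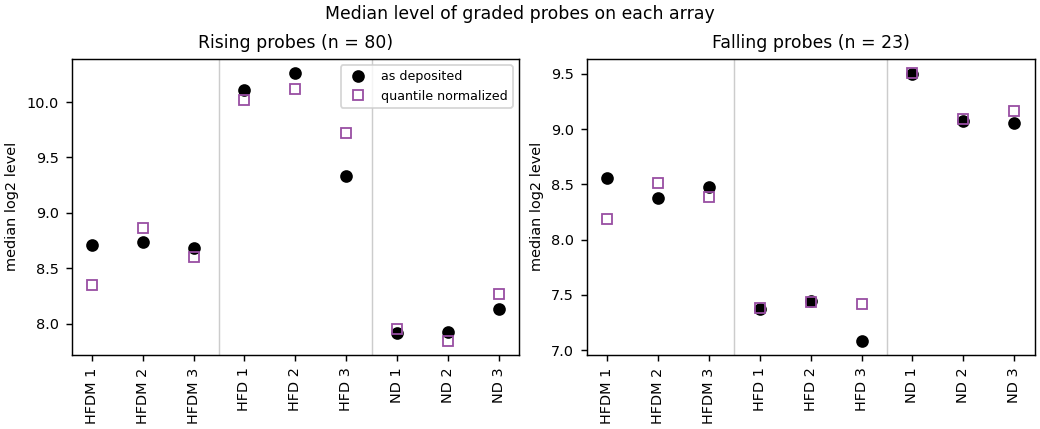
Median log2 level of the 80 rising (left) and 23 falling (right) members on each array, as deposited (filled circles) and after quantile normalization (open squares). HFDM medians lie between those of HFD and ND on every array in both versions, HFD 3 moves towards HFD 1 and HFD 2 after normalization, and HFDM 1 moves towards ND in the left panel and towards HFD in the right panel.

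limma's test on quantile-normalized values of 20772 probes, with Benjamini-Hochberg adjustment over all of them, called 292 probes higher (1.41%) and 81 lower (0.39%) in HFD than in ND at an adjusted p under 0.05. Among the members, 56 of 80 rising and 17 of 23 falling were called in these directions. HFDM against HFD gave 11 higher (0.053%) and 152 lower (0.732%) probes, with 24 rising members called lower and 2 falling members called higher. HFDM against ND gave 0 calls (0.0%), with 801 probes at an unadjusted p under 0.05, and no member was called. The rule used all 3 contrasts, so nothing is read from the members' counts. The first 2 comparisons share the HFD mice, the last 2 the HFDM mice, and the first and last the ND mice.

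Wider gene lists show what surrounded the members, counted at the brightest probe of each gene. Of 17 genes of lipid-associated macrophages and lysosomes, 6 rose in HFD against ND (Trem2, Lgals3, Gpnmb, Mmp12, Ctsk and Lipa) and 0 fell, with a list median of 0.66 against -0.01 for all probes. None of the 6 was graded. Trem2, a lipid receptor of macrophages, averaged 8.48 ± 0.29 in HFDM mice, 11.23 ± 0.34 in HFD mice and 8.29 ± 0.87 in ND mice after normalization (SD, n = 3 each), an HFD minus ND difference of 2.95 (limma adjusted p = 0.014). Of 15 chemokines and cytokines, 7 rose in HFD (Ccl2, Ccl6, Ccl7, Ccl9, Cxcl1, Il1rn and Saa3) with a list median of 1.28, and Cxcl1 was the 1 among them with a graded probe. Saa3, an acute-phase protein, averaged 8.87 ± 0.25 in HFDM mice, 12.75 ± 0.67 in HFD mice and 8.31 ± 0.38 in ND mice, an HFD minus ND difference of 4.44 (limma adjusted p = 0.00111).

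Of 16 matrix genes, Tnc was the 1 that passed in HFD against ND, with a list median of 0.54, and it and Sparc had graded probes. Of 21 lipogenic genes, Acacb, which makes the malonyl-CoA that restrains fatty acid oxidation, was the 1 that fell, and 0 rose, with a list median of -0.65 and 0 graded probes. Mest and Sfrp5 rose among 19 adipocyte identity genes. Of 21 genes of mannose metabolism and N-glycan synthesis, 0 passed in any of the 3 comparisons and 0 were graded. The same comparisons gave 0 calls among 12 endothelial and mural markers, 9 fibroblast and preadipocyte markers and 11 cell cycle genes. Their list medians in HFD against ND were 0.03, -0.04 and 0.72. The 2 Acta2 probes were the graded ones in the first list, and the other 2 lists had 0. For HFDM against HFD, Trem2, Gpnmb, Mmp12 and Lipa fell in the macrophage lysosome list and Ccl2, Cxcl1, Il1rn and Saa3 in the chemokine list, 4 genes each. In the macrophage marker list Adgre1 and Ctss fell. For HFDM against ND, 0 genes of any list passed.

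Macrophage markers were summed as a measure of one cell type that the fat pad holds. The summed intensity over 19 genes, of which 14 to 16 were detected per array, was 89178 to 123571 in HFDM mice, 104590 to 175863 in HFD mice and 93130 to 100035 in ND mice. Itgax, Marco and Msr1 were not detected on any array. In the fit, 0 of 17 macrophage markers passed in HFD against ND, with a list median of 0.81. The sums of HFDM overlapped those of ND and those of HFD. A Lyz1 probe, of a lysozyme, alone gave 37854 to 54392 in HFDM mice, 41782 to 57417 in HFD mice and 39512 to 47667 in ND mice. Laptm5, a lysosomal membrane protein of leukocytes, was the 1 marker with its probe in full order, at 13112.5 to 16000.5 in HFDM mice, 16762 to 26551 in HFD mice and 10389 to 12699 in ND mice. The part of these markers in the members' levels was not tested. Matrix gene sums were 130267 to 151540 in HFDM mice, 144560 to 218362 in HFD mice and 98395 to 134479 in ND mice. Adipocyte identity genes, all 19 of which were detected on at least 1 array, summed to 447465 to 464508 in HFDM mice, 351165 to 481061 in HFD mice and 417868 to 457834 in ND mice.

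**Figure D5:**
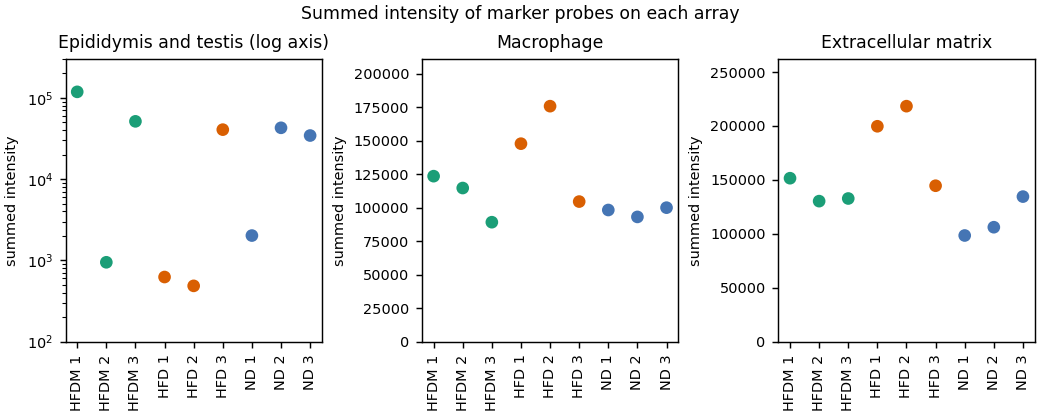
Summed intensity of marker probes on each array for epididymis and testis (log axis), macrophages and extracellular matrix, 1 dot per mouse. Epididymis and testis markers are high on arrays of all 3 diets, macrophage sums of HFDM overlap those of ND and of HFD, and matrix sums of HFD 1 and HFD 2 lie above all other arrays.

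Promoter windows were found for 54 of the 64 rising and 16 of the 17 falling genes, against 27025 genes in the RefSeq table, and both strands were searched. The NF-kB motif occurred at 8 rising genes (14.8%), against 6.55% of all promoters. These were Adamtsl2, BC028528, Cd300a, Cxcl1, Fgf13, Kif23, Lamb3 and Tnfaip2. Adgrg2, Slc2a13 and Zfp185 were the 3 falling genes with it (18.8%). The AP-1 motif TGANTCA occurred at 9 rising (16.7%) and 2 falling genes (12.5%), against 8.97%. The sterol response motif TCACNCCAC was found at 1 rising and 0 falling genes (1.44% of all), the lysosomal E-box TCACGTGA at 1 and 0 (1.12%), and the PU.1 motif GAGGAAGT, of a myeloid factor, at 1 and 0 (3.69%). No 2 motifs overlapped in a member promoter. A match is a run of letters in the window, not a bound site.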

How the data were processed

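Total RNA of 9 mice was measured on 9 single-colour arrays, 3 per diet, with groups taken from the sample titles. The deposited table held an intensity and a detection p-value per probe and array, per the file headers. The submitters' processing notes name GenomeStudio as the software, with no version given in those sources. Deposited intensity values below 0 occur, and no normalization between arrays is recorded. A second deposited table held intensity values on a linear scale that the authors had brought to about equal medians by a method that the labels and headers do not state. The number of arrays limits the precision. Slides and scan dates were not used here.

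Levels, differences, positions and the rule were computed in Python 3.11.15. For the tests, R 4.3.3 and limma 3.58.1 were used, with neqc (offset 16, quantile normalization) and probes kept at a detection p under 0.05 on at least 3 arrays. The model had 1 mean for each diet, used all 9 arrays and had no block, and p-values were adjusted by Benjamini-Hochberg over 20772 probes. The fit and the rule were tested on simulated data. An exact permutation test of 3 mice against 3 cannot give a two-sided p below 0.1, so none was used. Nothing beyond the titles describes how replicates were obtained, and p-values measure the spread between these replicates, taken as mice.

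Platform annotation gave 1 symbol to 34885 probes and several to 18, and 10378 of 45281 probes are unnamed here. Symbols were updated by Entrez identifier, and 34807 probes matched RefSeq on GRCm38.p6. The rule for naming took, in each direction, the 10 members with the widest clear steps and the 5 with the largest differences, plus members of the gene lists. Other members were named, and roles assigned, after their values were seen. The members and lists were chosen with earlier results of these data known.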

Additional observations from a re-analysis of the deposited data

How the results depend on the processing

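The count of 80 rising members became 52 under quantile normalization, 53 with the authors' processed values and 24 with means at least 2 apart. The count of 23 falling members became 35 under median scaling, 43 with means at least 0.5 apart and 5 with at least 2. Leaving out 1 array at a time gave between 69 (without HFD 2) and 175 (without ND 1) rising probes and between 19 (without HFD 3) and 100 (without ND 3) falling probes. The rising count was also over 1.5 times higher without HFD 3 (170), ND 3 (152), HFDM 2 (132) or HFDM 3 (123), and the falling count without ND 1 (74), HFDM 3 (53), ND 2 (44), HFDM 2 (40), HFDM 1 (39) or HFD 1 (36). A dropped array loosens the order and also shifts the means that must be 1 apart. With the 4 arrays low in epididymis and testis markers, a choice made after seeing the data, the counts were 1055 and 767. For the other settings tried, offsets of 1 and 64 and other detection filters, the counts were within 1.5 times.

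The median position of rising members (0.420) was 0.380 under quantile normalization, 0.435 and 0.390 with offsets of 1 and 64, 0.397 with detection on all 9 arrays, 0.337 with means at least 2 apart, 0.390 with the authors' processed values, 0.395 on the 4 arrays and 0.378 to 0.440 with 1 array left out. That of falling members (0.320) was 0.413 under quantile normalization, 0.364 under median scaling, 0.346 with an offset of 64, 0.354 with detection on all 9 arrays, 0.341 with no detection filter, 0.403 and 0.366 with means at least 0.5 and 2 apart, 0.405 with the authors' processed values, 0.610 on the 4 arrays and 0.311 to 0.419 with 1 array left out. These medians are over the probes that met the rule under each setting. The cause of these shifts was not tested.

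In limma, HFD against ND gave 373 calls, and 243 under median scaling, 136 with no normalization, 677 with a detection p under 0.01 on all 3 arrays of a diet, 560 with a variance trend and robust fitting, and 26 to 300 with 1 array left out, lowest without HFD 2. HFDM against HFD gave 163 calls, and 71, 22, 378 and 267 under the same 4 settings, 106 with no detection filter and 6 to 236 with 1 array left out. HFDM against ND gave 0 in the fits listed other than that without ND 1, where 2 were called, so 0 to 2 with 1 array left out. The array numbers did not pair the mice: correlations of same-numbered deviations ran between -0.516 and 0.459, 3 of 9 pairs were over 0.1, and 2 of 9 arrays correlated best with their own number. With a replicate block there were 92, 32 and 0 calls. Over the 29 probes named by the rule, 580 differences under alternatives kept their direction and 27 moved by over 1 SD. Full order fixes that direction when arrays are left out or when an offset, filter or threshold changes. Only quantile normalization, median scaling and the authors' processed values could have reversed it.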
